A study of Mus musculus with 93 samples.

Results

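The Gata factors and their Fog cofactors were examined as 7 genes of the 24514 in the count table, chosen by name: the transcription factors Gata2, Gata3, Gata4, Gata5 and Gata6, and the cofactors Zfpm1 (Fog1) and Zfpm2 (Fog2). The libraries came from mouse embryos carrying Hcn4-GFP, Tbx1-Cre and Ai9 and from precardiac spheroids grown from an embryonic stem cell (ESC) line of the same 3 alleles, so every group carried all of them. In these cells GFP reports Hcn4, an ion channel gene of the first heart field (FHF), and Cre driven from Tbx1, a gene of the second heart field (SHF), switches on the red Ai9 reporter (RFP) in cells that expressed Tbx1 and in their descendants. The 4 groups were embryo GFP+ (n = 5), embryo RFP+ (n = 4), spheroid GFP+ (n = 38) and spheroid RFP+ (n = 46), and 1 library was a well of 10 sorted cells. The sample titles put the embryos at embryonic day 8.5, while the dissection protocol and the study's methods give E7.75. The spheroids were sorted at day 5.5, after induction with Activin A and Bmp4 among other factors that the protocol lists alone or in combination. The labels do not assign wells to embryos or to separate differentiations, so p-values measure the spread between wells, which may be technical.

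Gata proteins bind DNA at the letters GATA through zinc fingers. Gata4, Gata5 and Gata6 are known for their roles in heart and endoderm, and Gata2 and Gata3 for roles in blood, endothelium, trophoblast and surface epithelium. Fog proteins do not need to bind DNA themselves: they attach to the Gata zinc finger and bring in corepressors, and Fog2 with Gata4 is required for heart formation.

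The reporter genes followed the labels by group, with an overlap of Hcn4 between embryo libraries. The spheroid cells carried few cardiomyocyte transcripts. Levels are given as read counts scaled to library size (CPM). Hcn4 lay between 1.06 and 33.6 CPM in embryo GFP+ and had 2 counts in all over the 4 embryo RFP+ libraries. Both were in H11, at 1.44 CPM, which lay above the GFP+ libraries A12 (1.09 CPM) and E12 (1.06 CPM), each with 1 count. Hcn4 therefore did not separate these libraries. Tbx1 had counts in 3 of 4 embryo RFP+ libraries and in none of the 5 embryo GFP+ libraries. In the spheroids Hcn4 had a median of 7.45 CPM in GFP+ and 0 in RFP+, and Tbx1 a median of 2.46 CPM in RFP+ and 0 in GFP+. A list of 12 cardiomyocyte markers summed to between 19087 and 55849 CPM in embryo GFP+ and to between 0 and 1428 CPM in spheroid GFP+. Total counts ran from 712732 to 2525460 in the embryo libraries and from 6288 to 5658882 in the spheroids, where the lowest was the GFP+ well C9. Between 6189 and 8302 genes were detected in embryo GFP+ libraries and between 10263 and 13052 in embryo RFP+. Spheroid RFP+ wells lay in plate columns 1 to 6 and spheroid GFP+ wells in columns 7 to 11, so population and plate position cannot be told apart. With pools of cells, fewer cells of a type and less RNA per cell cannot be told apart either.

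The promoters of Gata3 and Gata5 are shown because both genes differed between the spheroid populations. Each line gives the 250 bases before the RefSeq start on the gene's own strand (GRCm38.p6), at chr2:9878601-9878850 for Gata3 and chr2:180334680-180334929 for Gata5, both on the minus strand. Capitals mark each CG pair.
Gata3: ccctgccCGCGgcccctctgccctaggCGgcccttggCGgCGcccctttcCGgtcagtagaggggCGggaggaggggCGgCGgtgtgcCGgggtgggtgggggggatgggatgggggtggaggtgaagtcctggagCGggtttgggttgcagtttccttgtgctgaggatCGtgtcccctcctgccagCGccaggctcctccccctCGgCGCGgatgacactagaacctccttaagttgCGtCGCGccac
Gata5: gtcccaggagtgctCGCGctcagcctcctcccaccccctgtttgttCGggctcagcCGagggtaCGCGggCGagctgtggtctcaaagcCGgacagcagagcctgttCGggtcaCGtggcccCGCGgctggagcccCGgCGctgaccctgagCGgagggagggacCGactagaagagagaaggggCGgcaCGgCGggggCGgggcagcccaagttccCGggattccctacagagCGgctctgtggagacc
The Gata3 sequence held 19 CG pairs and the Gata5 sequence 22, numbers reached by 19.7% and 14.8% of the 32851 promoter windows of the same length. Neither held AGATAA or AGATAG or TGATAA or TGATAG on either strand, hexamers that 26.5% of all windows held at least once. The Gata3 start used here lies inside the annotated gene, which spans chr2:9857078-9890034 in GENCODE M21 and has further starts. Gata4, Gata6 and Zfpm2 had no entry among the promoter sequences.

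The order of the members differed between the groups when levels were divided by exon length (CPM per kb, mean ± SD). In embryo GFP+, Gata4 had 35.5 ± 22.9, Gata5 17.9 ± 13.6 and Gata6 16.0 ± 18.0 CPM per kb (n = 5), and the other 4 members were below 1. In embryo RFP+, Gata5 led with 8.91 ± 2.24 CPM per kb (n = 4), followed by Gata3 with 3.999 ± 3.82 and Gata6 with 3.83 ± 1.504. In spheroid GFP+, Gata3 led with 3.65 ± 2.07 CPM per kb (n = 38), ahead of Gata4 with 1.80 ± 1.41. In spheroid RFP+ no member passed the 1.00 ± 0.908 CPM per kb of Gata4 (n = 46). Of the 6 pairs of neighbours in each order, the gap exceeded the larger SD of the pair in 2 pairs in embryo RFP+ (Gata5 over Gata3, and Gata2 over Zfpm1) and in 0 pairs in each of the other 3 groups.

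**Figure D1:**
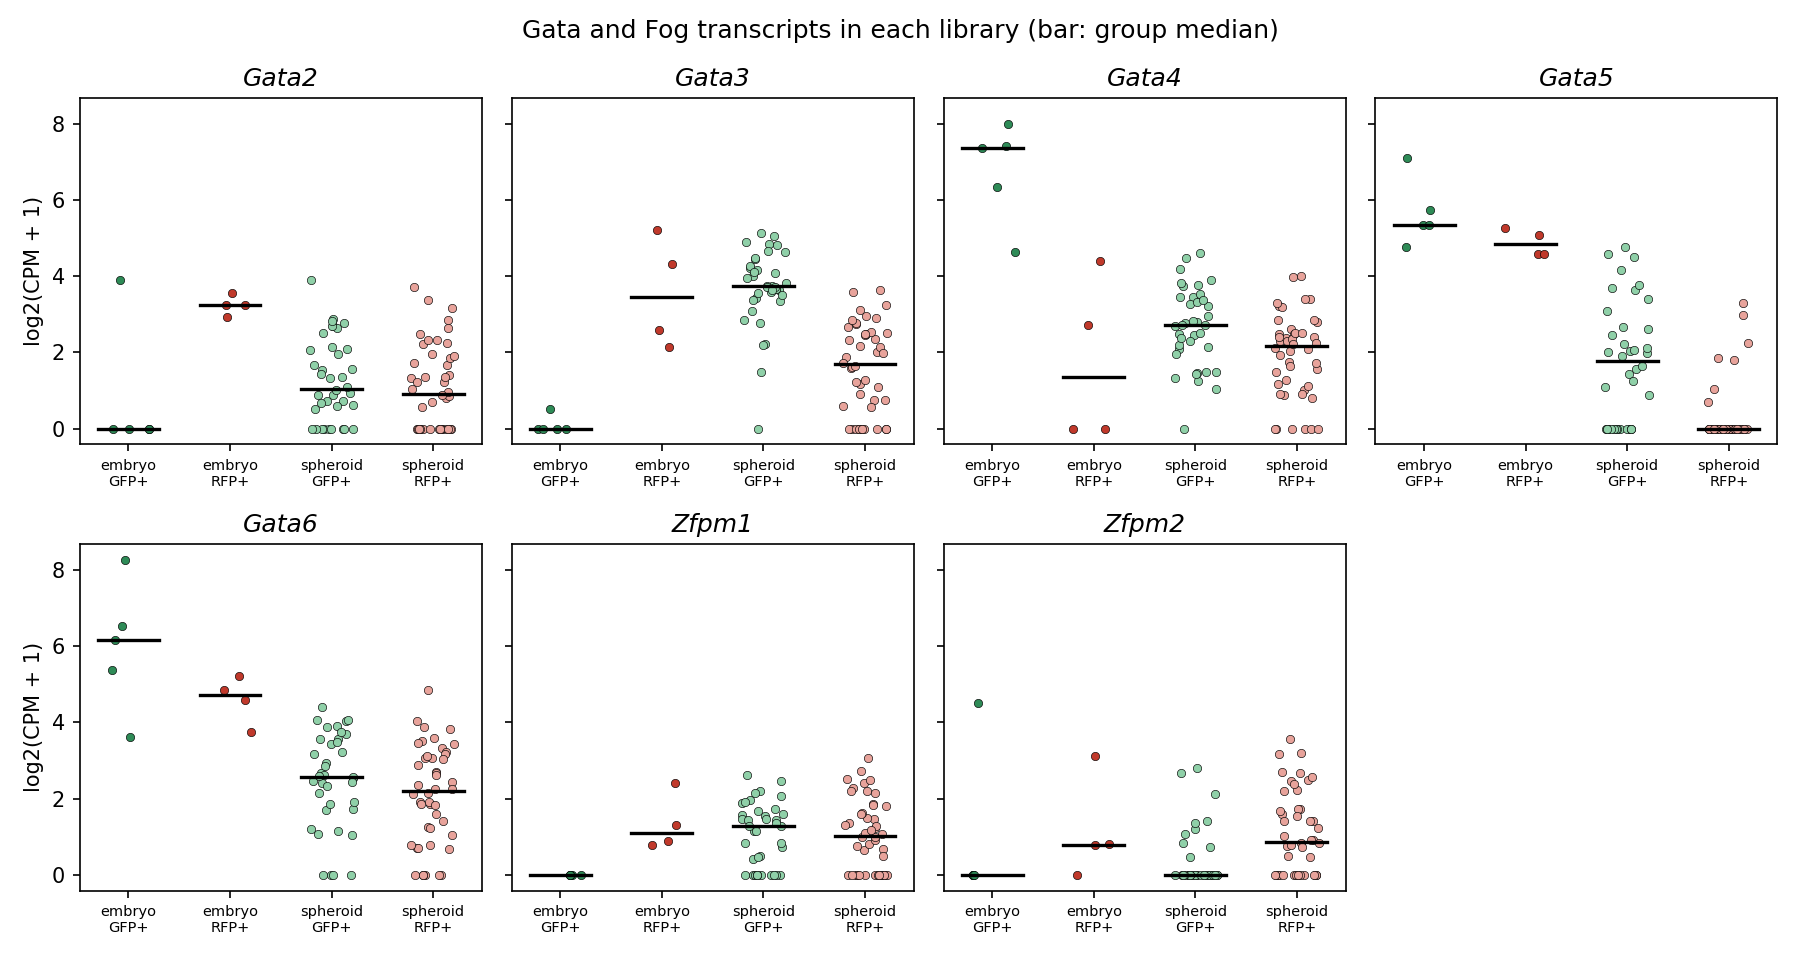
Level of each member in every library, as log2(CPM + 1) on the vertical axis, for the 4 groups on the horizontal axis; each point is a well of 10 cells and each bar a group median. Gata4 is high in the 5 embryo GFP+ libraries, Gata3 is near 0 there, and most spheroid values of Gata5 lie below all embryo values.

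Between the embryo populations, Gata4 was the member called lower in RFP+ cells, and Gata3 was nearly absent from GFP+ cells. Of the 7 members, 4 had enough counts to enter the test and 1 was called at an adjusted p under 0.1, against 10.1% of the 8503 genes tested. Without a filter on low counts 2 of 7 were called, against 13.2% of 15111 genes. In that fit the median log2 fold change was 0.767, and 1638 genes were called higher in RFP+ and 362 lower.

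Gata4, a factor needed for heart tube formation, had 24.0, 163, 255, 79.4 and 171 CPM in the embryo GFP+ libraries A12 to E12. In the RFP+ libraries it had 19.9 CPM in F12, 5.63 in G11 and 0 in G12 and H11. The groups did not overlap, although the lowest GFP+ library lay close to the highest RFP+ one. Gata4 was lower in RFP+ by 22.5-fold (log2 fold change -4.49, SE 1.22, edgeR quasi-likelihood adjusted p = 0.0836), and the exact two-sided permutation test gave p = 0.00794, the smallest that 5 against 4 libraries allow. The call was lost (adjusted p up to 0.230) on leaving out a GFP+ library other than A12 and D12, or an RFP+ library other than F12. The 12 cardiomyocyte markers summed to between 1259 and 2390 CPM in embryo RFP+ and to between 19087 and 55849 CPM in embryo GFP+. Of these markers 11 of 11 tested were called lower in RFP+, where 330 of all 8503 genes tested were. The part of these markers in the Gata4 difference was not tested.

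Gata3, a factor of trophoblast and epithelium, had 1 count in B12 (0.437 CPM) and 0 in the other 4 embryo GFP+ libraries. In RFP+ it had 36.2 CPM in F12, 19.0 in G11, 3.42 in G12 and 5.04 in H11. The groups did not overlap. The pooled counts, 87 against 1, gave a ratio of 116, with an interval of 20.2 to 4624 that covers counting error only. Gata3 was too low for the filtered test, the exact permutation test gave p = 0.00794, and the fit without a filter gave adjusted p = 0.0559. A list of 14 endoderm markers was also higher in RFP+: it summed to 663 CPM in F12, 293 in G11, 369 in G12 and 39.6 in H11, and to 0 to 21.4 CPM in GFP+. Among the RFP+ libraries both this sum and Gata3 were highest in F12, but G12, second by the sum, had the lowest Gata3. Of 14 surface ectoderm, trophoblast and neural crest markers, 12 were at 0 in embryo GFP+ and 4 in embryo RFP+. Fewer genes of any kind were detected in GFP+ libraries (6189 to 8302, against 10263 to 13052 in RFP+), so zeros there cannot be called particular to this list. The sums of the list overlapped (289 to 495 CPM in GFP+, 256 to 540 in RFP+) and Krt8 was lower in RFP+ (log2 fold change -1.41, SE 0.417, edgeR adjusted p = 0.0700). The part of these markers in the Gata3 difference was not tested.

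Gata2, a factor of blood and endothelium, had 6.64, 8.45, 8.54 and 10.8 CPM in the RFP+ libraries F12, G11, G12 and H11. In GFP+ it was at 0 in 4 libraries and at 13.8 CPM in E12. The groups overlapped through E12 alone. The exact permutation test gave p = 0.0476, and the edgeR adjusted p was 0.795. Without E12 the permutation p was 0.0286, and without any other single library it was 0.143. A list of 16 blood and endothelium markers summed to 1297 CPM in F12, 190 in G11, 74.3 in G12 and 428 in H11. It summed to 1.06 to 89.7 CPM in GFP+, with 1.06 in E12. F12, the RFP+ library with the highest sum, had the lowest Gata2 of the RFP+ libraries. Of these markers 4 could be tested and 2 were called, against 10.1% of 8503 genes. Lmo2 and Fli1, both blood and endothelial regulators, were higher in RFP+ (log2 fold changes 7.54 and 6.45, SE 1.33 and 1.67, edgeR adjusted p = 0.0104 and 0.0408). Kdr was not called (log2 fold change 3.07, SE 1.77, edgeR adjusted p = 0.516). The part of blood and endothelial cells in the Gata2 values was not tested. Gata1, the red cell factor, had 0 counts in all 9 embryo libraries.

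Gata5, a heart and endoderm factor, had 136, 39.3, 26.2, 52.5 and 39.3 CPM in the GFP+ libraries A12 to E12 and between 23.1 and 37.6 CPM in RFP+. The groups overlapped (log2 fold change -1.03, SE 0.973, edgeR adjusted p = 0.777). Gata6, which acts beside Gata4 in the early heart, had 70.9, 90.8, 11.2, 307 and 40.4 CPM in GFP+ and between 12.5 and 35.9 CPM in RFP+. These groups overlapped through C12, and the difference was not called (log2 fold change -2.08, SE 0.956, edgeR adjusted p = 0.351). It was called with DESeq2 (log2 fold change -2.18, adjusted p = 0.0866, where 17.7% of genes were called) and in one edgeR fit of the 4 groups (-2.07, adjusted p = 0.0432, where 56.2% were).

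The Fog cofactors were low in both embryo populations. Zfpm1 had 0 counts in all 5 GFP+ libraries and 10 counts over the 4 RFP+ libraries, at most 4.32 CPM in H11. The groups did not overlap (exact permutation p = 0.00794), but 3 counts in a GFP+ library would give 2.58 CPM on average, more than the RFP+ mean of 1.84 CPM, so no fold is given. Zfpm2, the partner of Gata4 in the heart, had 21.8 CPM in A12 and 0 in the other GFP+ libraries, and 0.738, 7.745, 0 and 0.720 CPM in RFP+ (exact permutation p = 0.762). The library with Zfpm2 counts, A12, had the lowest Gata4 and the highest Gata5 of the GFP+ libraries.

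In the spheroids, Gata3 was higher in GFP+ cells than in RFP+ cells. This was 1 of 2 members that entered the filtered test, where 77.9% of the 9940 genes tested were called. Without the filter 4 of 7 members were called, against 60.1% of 21827 genes: Gata3, Gata4 and Gata5 higher in GFP+, and Zfpm2 higher in RFP+. Shares near the background say nothing particular about these members.

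Gata3 ranged from 0 to 33.8 CPM in spheroid GFP+ with a median of 12.4, and from 0 to 11.4 CPM in RFP+ with a median of 2.21. It had counts in 37 of 38 GFP+ wells and in 35 of 46 RFP+ wells, and the GFP+ well without a count was C9. The groups overlapped, but the fold was 5.12 in favour of GFP+ (log2 fold change -2.36, SE 0.265, edgeR adjusted p = 9.11e-14), and the permutation test gave p = 1e-05, the smallest that 100000 resamples can give. The call was kept under each of the 10 alternatives tried.

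Epithelial genes were higher in the same GFP+ wells. Of the 14 surface ectoderm, trophoblast and neural crest markers, 5 could be tested and 5 were called lower in RFP+. Of all 9940 genes tested 77.9% were called, 3985 of them lower in RFP+. Among the 5 were the keratins Krt18 and Krt8 and the epithelial regulator Grhl2 (log2 fold changes -3.03, -2.78 and -2.66, SE 0.156, 0.145 and 0.229, edgeR adjusted p = 3.50e-32, 4.19e-32 and 3.15e-19). The list summed to 1035 to 6557 CPM in GFP+ and to 62.2 to 1091 CPM in RFP+. Without the abundant Krt8 and Krt18, and without well C9, it summed to 123 to 303 CPM in GFP+ and to 19.1 to 100.3 CPM in RFP+. Within a population, r of the log2 levels of Gata3 and the full list was 0.144 over 37 GFP+ wells and 0.347 over 46 RFP+ wells, and without the 2 keratins it was -0.102 and 0.237, as a description only. The part of epithelial cells in the Gata3 difference was not tested.

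**Figure D2:**
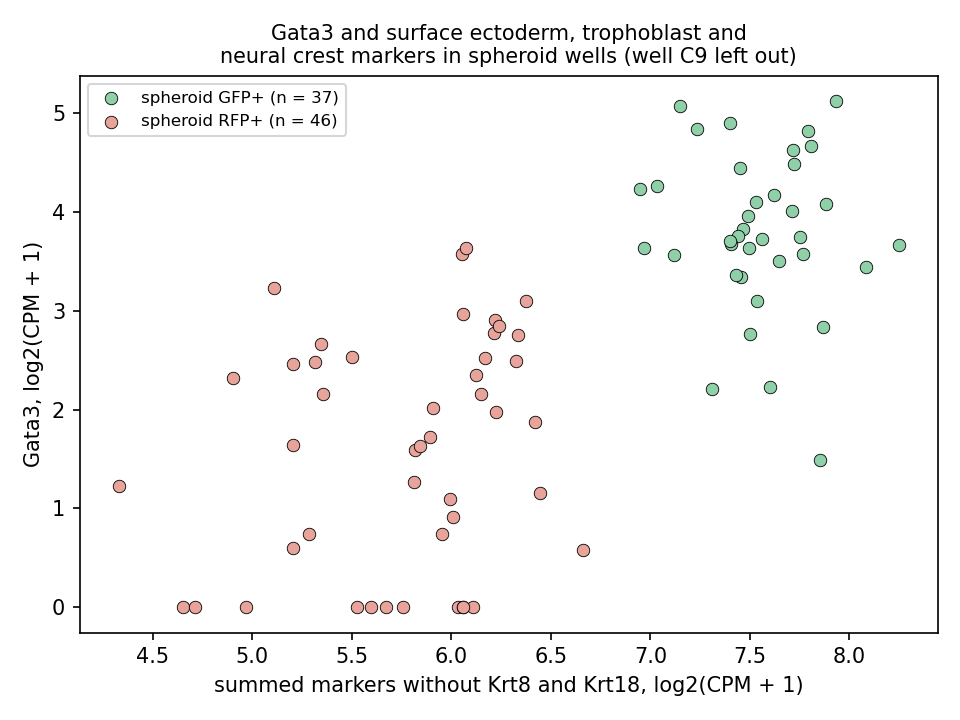
Gata3 level, as log2(CPM + 1), on the vertical axis against the summed surface ectoderm, trophoblast and neural crest markers without Krt8 and Krt18 on the horizontal axis, in the same unit; each point is a spheroid well, with C9 left out. The 37 GFP+ wells lie to the right of all 46 RFP+ wells, while their Gata3 levels overlap.

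Gata5 had counts in 25 of 38 spheroid GFP+ wells, with a median of 2.41 and a maximum of 26.3 CPM, and in 7 of 46 RFP+ wells, with a maximum of 8.88 CPM. Most RFP+ wells held no Gata5 read. The permutation test gave p = 1e-05, the smallest 100000 resamples can give, and the fit without a filter a log2 fold change of -2.88 (SE 0.545, edgeR adjusted p = 9.14e-07). Gata4 had a median of 5.55 CPM in GFP+ (0 to 23.2) and 3.49 CPM in RFP+ (0 to 15.05). The populations overlapped widely, and Gata4 was 1.82-fold lower in RFP+ without the filter (log2 fold change -0.86, SE 0.283, edgeR adjusted p = 0.00572, permutation p = 0.00195).

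Gata6, with medians of 4.97 CPM in GFP+ and 3.58 CPM in RFP+, was not called (log2 fold change -0.44, 95% interval -1.03 to 0.15, edgeR adjusted p = 0.175). Zfpm2 went the other way: it had counts in 10 of 38 GFP+ wells and in 30 of 46 RFP+ wells, and was higher in RFP+ (log2 fold change 1.601, SE 0.535, edgeR adjusted p = 0.00547 without the filter, permutation p = 0.00115). Gata2 had medians of 1.06 CPM in GFP+ and 0.884 CPM in RFP+, Zfpm1 of 1.44 and 1.04 CPM, and their permutation p-values were 0.427 and 0.897. At these levels a well holds few reads of either gene.

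Comparing embryo with spheroid within the GFP+ population, Gata4, Gata5 and Gata6 were higher in embryo cells and Gata3 was lower. These were 4 of 4 members that entered the test, all called, against 68.0% of 11822 genes. A member can enter the test through the group in which it is high, so this count is a description. The median log2 fold change over all genes tested was -0.67, so the 3 rises ran against the shift of the table and the Gata3 fall ran with it. With DESeq2 this median was -0.207. Gata4 was 16.8-fold higher (log2 fold change 4.07, SE 0.471, edgeR adjusted p = 8.35e-14), and its 5 embryo libraries all lay above the highest of the 38 spheroid wells, 23.2 CPM. Gata6 had a log2 fold change of 3.79 (SE 0.582, adjusted p = 5.16e-10) and Gata5 of 3.35 (SE 0.847, adjusted p = 3.11e-05), both by edgeR and with overlapping groups. For Gata3 the pooled counts, 1 in the embryo and 1051 in the spheroids, put spheroid cells 109-fold higher, with a counting interval of 19.5 to 4300. Without the filter 6 of 7 were called against 55.8% of 21087 genes, adding Zfpm2, which rested on A12 alone in the embryo, and Zfpm1, for which no fold is given since the embryo libraries held 0 counts.

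Within the RFP+ population, 4 of the 6 members tested were called, all higher in the embryo. Of the 11147 genes tested 42.6% were called, 2241 higher in the embryo and 2504 lower. Here too a member can enter the test through the group in which it is high, so this count is a description. Without the filter the same number of 7 members was called, against 25.8% of 20426 genes. Gata5 showed the largest difference of the 6, 5.39 on the log2 scale (edgeR), and its 4 embryo libraries lay above the highest of the 46 spheroid wells, 8.88 CPM (exact permutation p = 4.34e-06, the smallest possible here). Gata3 had a log2 fold change of 2.41 (SE 0.763, adjusted p = 0.00187), Gata6 of 2.30 (SE 0.676, adjusted p = 0.000918) and Gata2 of 2.15 (SE 0.886, adjusted p = 0.0206), by the same edgeR test. Without library F12 the Gata3 call was lost (log2 fold change 1.63, edgeR adjusted p = 0.114). Gata4 and Zfpm2 were not called (95% intervals of the log2 fold change -0.81 to 2.21 and -1.66 to 2.35). In the GFP+ and RFP+ comparisons alike, source and stage differ together. Cardiomyocyte markers were called higher in the embryo, 11 of 11 tested in GFP+ and 8 of 8 in RFP+. Of all genes tested, 2326 of 11822 in GFP+ and 2241 of 11147 in RFP+ were called higher. The part of these markers in the Gata differences was not tested.

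**Figure D3:**
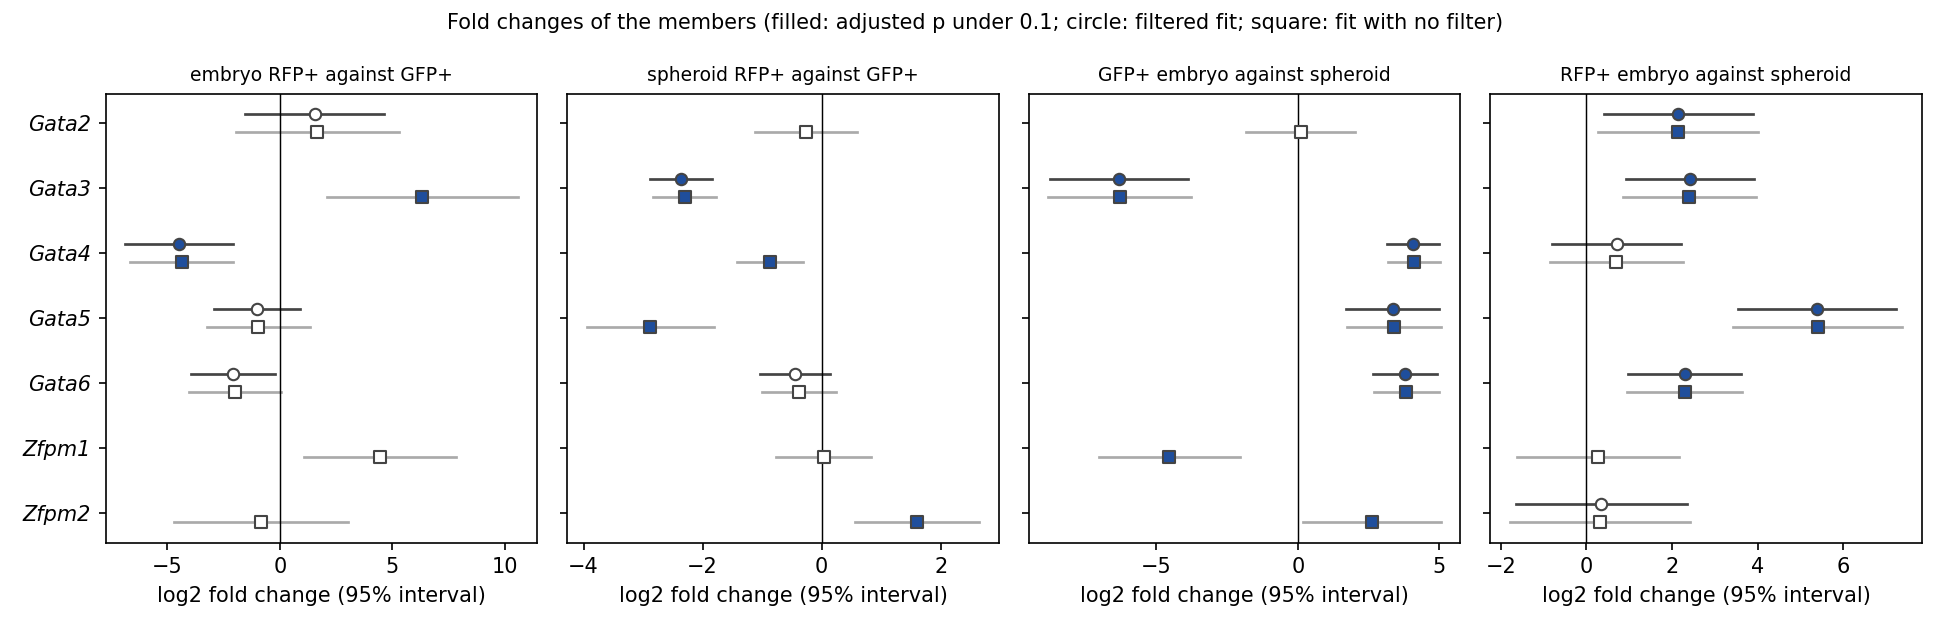
Log2 fold change of each member with its 95% interval (normal approximation, too narrow for the 9 embryo libraries) on the horizontal axis in the 4 comparisons, with scales that differ between panels; circles come from the fit with a filter on low counts, squares from the fit without one, and filled symbols mark an adjusted p under 0.1. Gata3 lies right of 0 in the embryo and left of 0 in the spheroids, and Gata5 and Gata6 lie right of 0 in both embryo against spheroid panels.

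The RFP+ to GFP+ change was then compared between embryo and spheroid. Of the genes tested in both, 5.68% of 8182 differed. Gata6 was the 1 member tested in both and did not differ (difference of log2 fold changes -1.64, SE 1.00, adjusted p = 0.649). Gata3 pointed in opposite directions, up in embryo RFP+ and down in spheroid RFP+, and without the filter the difference was 8.63 on the log2 scale (SE 2.18, adjusted p = 0.152), which did not pass, in a test that called 0.876% of 15069 genes. An interaction term in one edgeR fit of the 4 groups called 2 of 6 members, Gata3 and Gata4, but that fit called 54.4% of 12655 genes.

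Genes that work with the Gata factors were read from lists. Of 15 cardiac partner factors of Gata4, 12 were tested in the embryo, where 3 fell in RFP+ and 0 rose (median log2 fold change -0.58, against 0.09 over all genes tested). These were Tbx20, Mef2c and Tbx5, heart transcription factors (log2 fold changes -7.32, -3.43 and -7.80, SE 0.503, 0.282 and 1.01, edgeR adjusted p = 2.06e-05, 4.08e-05 and 0.00122). Of all genes tested in the embryo, 10.1% were called. In the spheroids 9 of 12 fell in RFP+ and 1 rose. Of all 9940 genes tested there 77.9% were called, 3985 lower in RFP+ and 3762 higher. The share called in either direction was thus near the background, while more of these factors fell than rose. The lowest adjusted p-values were those of Hand2, Hand1 and Isl1 (log2 fold changes -4.24, -4.39 and -1.40).

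Of 18 cardiac genes with described GATA sites, 13 were tested in the embryo. There 9 fell and 2 rose in RFP+, against 10.1% of all genes called (median log2 fold change -4.51). The sarcomere genes Myh6, Actc1 and Tnnc1 had log2 fold changes of -7.20, -5.29 and -4.51. These 3 are also cardiomyocyte markers, of which 11 of 11 tested fell in embryo RFP+. Mef2c and Tbx20 are also among the partner factors, so the lists are not separate results. In the spheroids 5 of 8 genes with GATA sites fell and 2 rose, again near the 77.9% of all genes called. Of 15 NuRD and CtBP corepressor genes, the complexes that Fog proteins recruit, 0 of 15 were called in the embryo by edgeR, against 10.1% of all genes. In the spheroids 8 rose and 3 fell in RFP+, a share no higher than the 77.9% of all genes called, and Ctbp1 was higher in RFP+ by 0.99 on the log2 scale. Among 6 other proteins with GATA-type fingers, 4 were tested in each: 0 were called in the embryo, and in the spheroids 1 rose (Gatad1) and 2 fell (Trps1 and Gatad2b), also near the background.

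Genes whose level across the 93 libraries was most like a member's were listed by Pearson's r of log2 CPM, as a description. For Gata3 these were H2-D1, Clca4a and Rab25 (r = 0.730, 0.729 and 0.719), for Gata4 they included Laptm4a and Dstn (r = 0.688 and 0.683), and for Gata6 the muscle genes Myl7, Tnni1 and Acta2 (r = 0.647, 0.646 and 0.645). The libraries share group and depth, and with group means taken out the highest r was 0.495 for Gata3, 0.486 for Gata4 and 0.436 for Gata6. For Gata2 and Zfpm1 no gene passed 0.461 and 0.406, and Gata5 and Zfpm2 had counts in too few libraries to be listed.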

How the data were processed

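RNA from wells of 10 sorted cells was amplified from the poly(A) tail and sequenced. Per the labels and the study's methods, the authors trimmed reads with Trimmomatic 0.36, mapped them to mm10 with HISAT2 2.0.4 and deposited raw read counts per gene from featureCounts 1.5.2 for 93 libraries. Whether counting used strand is not given in the sources used here: exons of Gata3, Gata5 and Gata6 overlap other genes in GENCODE M21, so their counts are uncertain to that extent. A gene of the count table overlaps Gata3 on the same strand, an overlap that counting by strand would not separate. Groups came from the sample titles.

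Counts were tested in edgeR 4.0.16 (quasi-likelihood, TMM scaling, filterByExpr with a minimum count of 10, a total of 15 and a proportion of 0.7), with Benjamini-Hochberg adjustment over all genes tested and the study's threshold of 0.1. This edgeR test was tried on simulated counts with a single dispersion, and the other tests were not simulated. Differences between embryo and spheroid changes were divided by their standard errors (7 degrees of freedom). Members were also tested singly on log2 CPM (prior count 2) with two-sided permutation tests, 28 in all, unadjusted: exact, or with 100000 resamples between spheroids. CPM used one TMM scaling over all libraries, and lengths were exon unions. Intervals of pooled-count ratios and floors (3 counts) cover counting error only. The 95% intervals of log2 fold changes come from the SE of the fit, which includes the spread between wells. DESeq2 1.42.0 was an alternative. Of the spheroid RFP+ wells, 7 pairs in neighbouring columns were more alike than any other pair (chi-square per degree of freedom 1.33 to 2.29, against 2.61 to 13.8). They were kept separate, and summed in an alternative edgeR fit. They differed by more than sampling noise, which does not show that they are independent, and the labels do not say. If they are repeats, the 46 wells and the spheroid RFP+ permutation tests, which did not sum the pairs, count them more than once.

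Members and lists were chosen with earlier results of these data known. Named genes were the members, Hcn4 and Tbx1, at most 3 genes of lowest adjusted p per list and comparison, and the 3 genes of highest r per member with counts in at least 50% of the libraries. Gata1 is named outside this rule, and 1 gene that the rule names is not reported here.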

Additional observations from a re-analysis of the deposited data

Results flagged for a closer look

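6 values stood apart from the rest of their embryo group by Dixon's ratio. For 3 of them, Gata2 in E12, Gata3 in B12 and Zfpm2 in A12, the other 4 libraries were at 0, so any count would be flagged and no chance rate applies. Zfpm2 in G11 was near this case, with 0 or 1 count in each of the other RFP+ libraries. Elsewhere chance would flag about 5% of groups if values were normally distributed, which was not tested for these CPM. In embryo GFP+, the flagged values were Gata2 in E12 (13.8 CPM, the other 4 libraries at 0), Gata3 in B12 (0.437 CPM, from 1 count), Gata5 in A12 (136 CPM), Gata6 in D12 (307 CPM) and Zfpm2 in A12 (21.8 CPM). In embryo RFP+ it was Zfpm2 in G11 (7.745 CPM). 5 of the 6 were in embryo GFP+, and A12 held 2 of them.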

How the results depend on the processing

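In the embryo RFP+ to GFP+ comparison, the count of members called moved from 1 to 0 at an adjusted p under 0.05, to 2 without a filter on low counts (13.2% of all genes called), to 3 with DESeq2 (17.7%) and to 3 with one fit of 4 groups (56.2%), Gata3 and Gata6 being gained in both; with each library left out in turn it ran from 0 to 1. In the spheroids it moved from 1 to 4 with DESeq2 (65.8% of all genes called), without a filter (60.1%) and with one fit of 4 groups (69.6%), settings that also tested more members (7, 7 and 6 in place of 2). Differences between embryo and spheroid changes went from 0 to 2 with an interaction term in one fit (54.4% of all genes called). The cause was not tested. Counts in both embryo against spheroid comparisons stayed within 1.5 times of 4. Of the 28 permutation tests 17 passed 0.05 (16 to 18 with 1 library left out, a setting added once the data had been seen). These tests were run on the members only, so no share over all genes stands beside the count, which is a description.

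Of the single fold changes under the alternatives, 207 kept their direction and side of the threshold, 7 lost and 2 gained a call, and 2 uncalled ones in RFP+ embryo against spheroid reversed: Gata4 to -0.99 without embryo RFP+ F12 (up to 1.10 without other libraries), and Zfpm2 to -1.73 without G11 (up to 0.72). No paired analysis was possible because the labels give wells and no shared replicate numbers. Depth limits Zfpm1, Zfpm2 and Gata2, at a few counts per library.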
